A study of Homo sapiens with 9 samples.

Results

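CDKN1A and 9 further genes that the transcription factor p53 switches on were followed in HCT 116 cells given a klotho vector or an empty vector. The genes were chosen by name (CDKN1A, MDM2, GDF15, SESN1, BTG2, TP53INP1, FAS, RRM2B, ZMAT3 and TP53I3), and each was read from the brightest probe set that named it alone. Of these 10 genes, 9 had such a probe set, 1 each, among 17958 genes read in all, and BTG2, a gene that slows proliferation, was not analysed here. HCT 116 is an established human colorectal cancer line, obtained from ATCC. The control group received the empty plasmid pcDNA3, the KL-FL group a plasmid with mouse full-length klotho, and the KL1 group a plasmid with the KL1 subdomain of mouse klotho. Each group had 3 arrays, and RNA was taken 24 hours after transfection in all of them. Transfection was transient, with JetPEI or polyethylenimine; which culture received which reagent, and what share of the cells took up plasmid, is not given. Nothing states that replicates were separate cultures, so the p-values reflect only the array-to-array spread, part or all of which may be technical.

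p53 is held low in unstressed cells by MDM2, a ubiquitin ligase that is itself made from a p53 target gene, so the pair forms a feedback loop. When DNA damage or other stress frees p53 from MDM2, it binds paired half-sites in or near its target genes and raises their transcription. CDKN1A encodes p21, which blocks cyclin-dependent kinases and halts the cell cycle. Some of these genes, CDKN1A and GDF15 among them, also respond to other stresses, including stress of the endoplasmic reticulum (ER), which the series title names through the unfolded protein response.

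The start-site windows of these genes were searched for exact matches to 2 short motifs, and a match is a description of the sequence only. The search covered 15 RefSeq (GRCh38.p14) start-site windows of 250 bases upstream, from 7 of the 9 measured genes. TP53INP1 and RRM2B were not searched, so the counts over the 15 windows leave them out. The p53 half-site consensus, which reads the same on both strands, was searched for an exact match, and 2 of the 15 windows held one, against 5.57% of 35116 windows of all genes. Both windows belong to alternative starts, one each of SESN1 (chr6:109009018-109009047, minus strand, 49 to 40 bases before the start) and FAS (chr10:88991299-88991328, plus strand, 122 to 113 bases before the start). They are printed 5′ to 3′ with the half-site in capitals, because they are the windows with an exact match among the 15 searched.
SESN1: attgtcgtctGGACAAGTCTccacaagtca
FAS: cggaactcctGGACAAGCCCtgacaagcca
The CDKN1A window (chr6:36678464-36678713, plus strand) held no exact half-site, and its known p53 sites lie farther upstream. It held 4 copies of GGGCGG, the core of an Sp1 site, of which the last pair overlaps; all are in capitals. GGGCGG on either strand was found in 12 of the 15 windows and in 42.6% of all windows. It is shown because CDKN1A had the widest range of the 9 over all arrays.
CDKN1A: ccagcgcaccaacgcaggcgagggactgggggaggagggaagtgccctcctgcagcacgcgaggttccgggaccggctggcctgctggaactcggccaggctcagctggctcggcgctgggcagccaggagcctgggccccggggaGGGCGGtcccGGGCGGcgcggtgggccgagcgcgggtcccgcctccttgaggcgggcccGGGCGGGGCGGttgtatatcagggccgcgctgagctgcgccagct

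All values below are the authors' deposited log2 expression values, on which 1 unit is a doubling. Epithelial markers, the class of the labelled line, had array means of 7.01 to 7.18 over 12 genes. Leukocyte markers had 3.69 to 3.78 over 9 genes, and fibroblast and endothelial markers 3.65 to 3.71 over 10. The table has no detection call, so a low value cannot be told from absence. A pair of arrays stood apart from the rest: KL-FL replicate 3 had a median correlation of 0.9970 with the other 8 arrays and KL1 replicate 2 one of 0.9979, while the other 7 arrays had at least 0.9986.

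None of the 9 genes passed the test in either klotho group. In bulk RNA a large change in few cells and a small change in all cells cannot be told apart. In limma, with Benjamini-Hochberg adjustment over all 17958 genes and a threshold of 0.05, 0 of 9 were called between KL-FL and control, where 0.00557% of all genes were, and 0 of 9 between KL1 and control, again against 0.00557%. Between KL-FL and KL1 0 of 9 were called, against 0% of all genes. The gene called in both comparisons with control was DDIT3, the ER stress factor CHOP, at a log2 difference of 0.65 for KL-FL (limma adjusted p = 0.0348) and 0.78 for KL1 (adjusted p = 0.00687). With the replicate number as a block both calls were lost, at limma adjusted p = 0.226 and 0.0611. Leaving out 1 array at a time, the adjusted p ran from 0.00392 to 0.435 for KL-FL and from 0.000154 to 0.108 for KL1. Both calls were lost when any 1 control or KL1 array was left out, with 0.0744 and 0.0723 without KL1 replicate 2, and the KL-FL call also without KL-FL replicate 1, at 0.205. At an unadjusted p under 0.05 stood 0 of the 9 in the KL-FL comparison (7.16% of all genes), 2 in the KL1 comparison (5.1%) and 1 between KL-FL and KL1 (5.05%). The groups did not overlap for 0 of the 9 between KL-FL and control (10.4% of all genes), for 1 between KL1 and control (9.47%) and for 0 between KL-FL and KL1 (6.88%). The median difference of the 9 was 0.013 for KL-FL, -0.023 for KL1 and 0.026 for KL-FL minus KL1, beside 0.0099, 0.0026 and 0.0058 over all genes. Without KL-FL replicate 2 the first of these medians was -0.049.

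**Figure D1:**
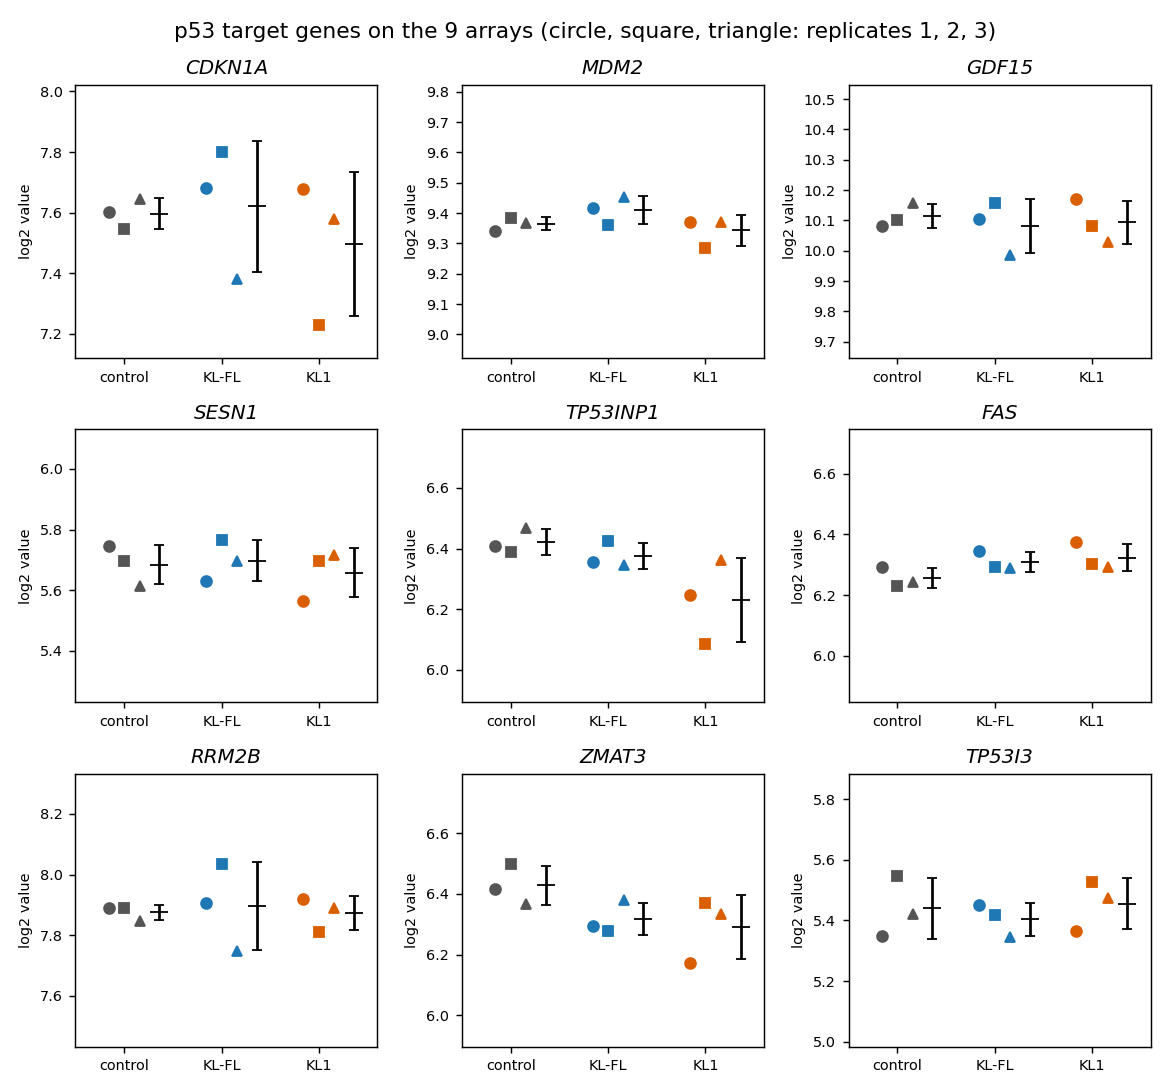
Deposited log2 values (vertical axis, the same span in every panel) of the 9 p53 target genes on each array, by group; points are arrays, and the black mark with its bar is the group mean ± SD (n = 3). CDKN1A has the widest scatter, from 7.23 to 7.80, and TP53INP1 is the gene whose KL1 arrays all lie below the controls.

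CDKN1A (probe set 8119088; chromosome 6, 36676463 to 36687332 in GRCh38.p14) showed no difference between groups that exceeded its spread, and that spread was wide. The control arrays read 7.60, 7.54 and 7.64. The KL-FL arrays read 7.68, 7.80 and 7.38, and the KL1 arrays 7.68, 7.23 and 7.58. In each klotho group 2 arrays lay within or above the control range and 1 array lay below all of them, KL-FL replicate 3 and KL1 replicate 2, the same arrays that stood apart over all genes. The control mean was 7.60 ± 0.050 (SD, n = 3). The KL-FL mean was 7.62 ± 0.22 (SD, n = 3) and the KL1 mean 7.50 ± 0.24 (SD, n = 3). The log2 difference from control was 0.024 (SE 0.13, limma adjusted p = 0.969) for KL-FL and -0.10 (SE 0.13, limma adjusted p = 0.943) for KL1. The 95% intervals of these differences, not adjusted for the number of genes, ran from -0.27 to 0.31 and from -0.39 to 0.19, that is from 0.831-fold to 1.24-fold and from 0.762-fold to 1.14-fold.

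The sign of the CDKN1A difference depended on single arrays. For KL-FL it was 0.14 without KL-FL replicate 3, and it was -0.0076, -0.065 and -0.0022 without KL-FL replicate 1, KL-FL replicate 2 or control replicate 2. For KL1 it was 0.033 without KL1 replicate 2. With both arrays that stood apart left out, the differences were 0.14 (limma adjusted p = 0.506) and 0.033 (adjusted p = 0.880). KL-FL and KL1 differed by 0.12 (SE 0.13, limma adjusted p = 0.878), with an interval from -0.17 to 0.42, and by -0.0092 without KL1 replicate 2 and 0.11 without both arrays.

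The pooled SD of CDKN1A within groups was 0.19, higher than in 98.3% of all genes, whose median was 0.061. Among the other 8 targets this SD ran from 0.037 for FAS to 0.091 for RRM2B. Without KL-FL replicate 3 and KL1 replicate 2 the SD of CDKN1A was 0.064, higher than in 68.0% of all genes, whose median was then 0.050. That of the other 8 targets then ran from 0.025 for MDM2 to 0.085 for SESN1, a range that holds CDKN1A. As a description over the 9 arrays, the 5 genes of above-median level whose values followed CDKN1A most closely were TMEM184B, GTF3C2, PAX9, MIEN1 and ZFP36L2, with Pearson r from 0.971 to 0.981 and Spearman rho from 0.879 to 0.966. All 5 were at their lowest on KL1 replicate 2 and next lowest on KL-FL replicate 3. Over the other 7 arrays r was 0.833 to 0.906. The 5 were picked as the highest of 8978 genes, and the points share array-wide effects, so no p is given. PAX9, a transcription factor of developing tissues, read 5.57 on KL1 replicate 2, 5.72 on KL-FL replicate 3 and at least 5.85 elsewhere.

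MDM2 (probe set 7956989; chromosome 12), the ligase that degrades p53, was among the steadiest of the 9. Its control arrays read 9.34, 9.38 and 9.37, its KL-FL arrays 9.42, 9.36 and 9.45, and its KL1 arrays 9.37, 9.28 and 9.37. The 3 groups overlapped. The log2 difference was 0.045 (SE 0.037, limma adjusted p = 0.774) for KL-FL, with an interval from -0.039 to 0.13, and -0.023 (SE 0.037, limma adjusted p = 0.958) for KL1, with an interval from -0.11 to 0.061. The KL-FL difference was 0.024 without KL-FL replicate 3, and the KL1 difference 0.0064 without KL1 replicate 2.

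MDM4, the relative of MDM2 that blocks p53 without degrading it, was read beside it. Its control arrays were at 7.66, 7.61 and 7.64, its KL-FL arrays at 7.71, 7.72 and 7.74, and its KL1 arrays at 7.66, 7.46 and 7.57. All KL-FL arrays lay above all controls and above all KL1 arrays, a separation that 7.13% and 4.67% of all genes had in the same direction. The difference was 0.086 (SE 0.048, limma adjusted p = 0.712) for KL-FL, -0.072 (SE 0.048, adjusted p = 0.927) for KL1 and 0.16 (SE 0.048, adjusted p = 0.855) between KL-FL and KL1, and none passed. Without KL1 replicate 2 the last 2 of these were -0.020 and 0.11.

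**Figure D2:**
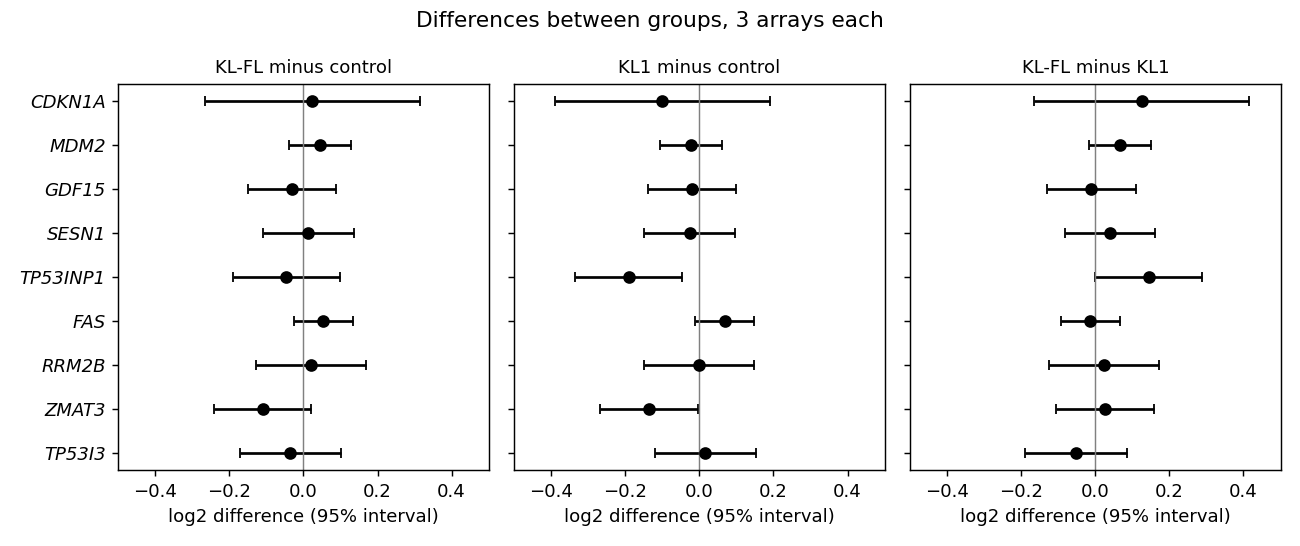
Log2 differences between group means (horizontal axis) with limma's 95% intervals, not adjusted for the number of genes, for the 9 genes in the 3 comparisons. All 9 intervals hold 0 for KL-FL minus control and 7 of 9 for KL1 minus control, where TP53INP1 and ZMAT3 lie below it. For KL-FL minus KL1 8 of 9 hold 0, and that of TP53INP1 lies just above it, from 0.0001 to 0.29. CDKN1A has the widest interval in each comparison.

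TP53INP1 (probe set 8151890; chromosome 8), a stress protein that promotes autophagy and p53 activity, had the largest difference of the 9 in the KL1 comparison. Its control arrays read 6.41, 6.39 and 6.47. Its KL-FL arrays read 6.36, 6.42 and 6.35, and its KL1 arrays 6.25, 6.09 and 6.36. All KL1 arrays lay below all controls, as in 4.34% of all genes, while the KL-FL arrays overlapped the controls. The KL1 difference was -0.19 (SE 0.064, interval from -0.34 to -0.046), or 0.876-fold, with an unadjusted p of 0.0154 and a limma adjusted p of 0.927. It was -0.12 without KL1 replicate 2, and over all settings tried it lay between -0.26 and -0.12. The KL-FL difference was -0.046 (SE 0.064, limma adjusted p = 0.859). KL-FL minus KL1 was 0.14 (SE 0.064, limma unadjusted p = 0.0499, adjusted p = 0.855), or 0.072 without KL1 replicate 2.

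ZMAT3 (probe set 8092230; chromosome 3), a zinc finger protein that binds RNA, had the next largest KL1 difference. Its control arrays read 6.42, 6.50 and 6.37, its KL-FL arrays 6.30, 6.28 and 6.38, and its KL1 arrays 6.17, 6.37 and 6.33. In each klotho group the top array was just above the lowest control, so the groups overlapped. The difference was -0.11 (SE 0.058, limma adjusted p = 0.709) for KL-FL and -0.14 (SE 0.058, limma adjusted p = 0.927) for KL1, with an unadjusted p of 0.0442 in the latter. Both stayed negative under every setting tried, between -0.14 and -0.075 and between -0.17 and -0.076. The klotho groups share their 3 controls, of which replicate 2 was the highest array for ZMAT3.

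GDF15 (probe set 8027002; chromosome 19), a secreted stress cytokine of the TGF-beta family, differed between groups by less than its spread. Control arrays read 10.08, 10.10 and 10.16, KL-FL arrays 10.11, 10.16 and 9.98, and KL1 arrays 10.17, 10.08 and 10.03. The lowest array was KL-FL replicate 3. The difference was -0.032 (SE 0.053, interval from -0.15 to 0.088, limma adjusted p = 0.891) for KL-FL and -0.021 (SE 0.053, interval from -0.14 to 0.099, adjusted p = 0.974) for KL1. Both signs turned under quantile normalization, to 0.0087 and 0.0070, and the first was 0.017 without KL-FL replicate 3. On the same arrays DDIT3 read 6.66 to 6.72 in control and 7.23 to 7.48 in the klotho groups.

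RRM2B (probe set 8152133; chromosome 8), the p53-inducible small subunit of ribonucleotide reductase that supplies nucleotides for DNA repair, had control arrays at 7.89, 7.89 and 7.85. Its KL-FL arrays read 7.91, 8.04 and 7.75 and its KL1 arrays 7.92, 7.81 and 7.89. The KL-FL arrays lay on both sides of all controls, as for CDKN1A. The difference was 0.021 (SE 0.066, limma adjusted p = 0.947) for KL-FL and -0.0018 (SE 0.066, adjusted p of 1.0) for KL1, and leaving out KL-FL replicate 2 gave -0.049 for the former, whereas leaving out KL-FL replicate 3 gave 0.096. The latter was 0.030 without KL1 replicate 2. Of the other 8 targets RRM2B followed CDKN1A most closely over the 9 arrays, with Pearson r of 0.824, Spearman rho of 0.862 and r of 0.803 without KL1 replicate 2 and KL-FL replicate 3. This r was higher than for 97.5% of 17950 genes whose values varied. The corresponding r was 0.681 for TP53INP1, which dropped to 0.014 without those arrays, 0.614 for GDF15, 0.252 for MDM2, 0.175 for FAS, -0.10 for SESN1, -0.30 for TP53I3 and -0.43 for ZMAT3. Without those arrays r was 0.64 for GDF15, 0.013 for MDM2, 0.428 for FAS, 0.028 for SESN1, -0.431 for TP53I3 and -0.68 for ZMAT3. These are descriptions of 9 arrays that share array-wide effects, with no p.

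**Figure D3:**
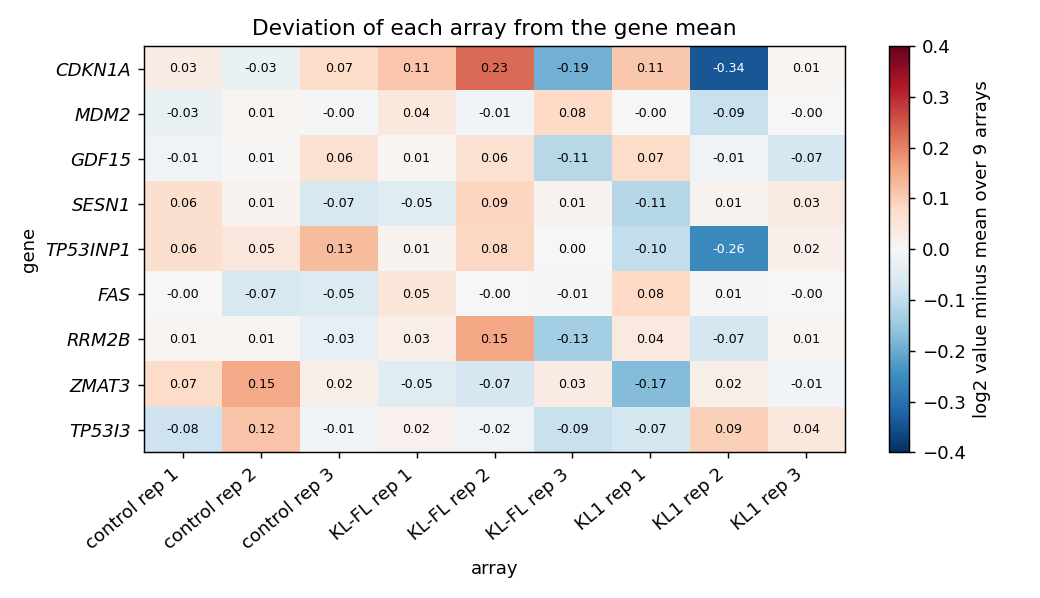
Each array's log2 value minus the gene's mean over the 9 arrays (colour and printed number), with genes in rows and arrays in columns. KL1 replicate 2 is lowest for CDKN1A, MDM2 and TP53INP1 and KL-FL replicate 3 for GDF15, RRM2B and TP53I3. KL-FL replicate 3 is also below every control for CDKN1A, and KL1 replicate 2 for RRM2B. In contrast, KL-FL replicate 3 is the highest array for MDM2, and KL1 replicate 2 is above every KL-FL array for TP53I3.

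FAS (probe set 7929032; chromosome 10), the death receptor whose half-site is printed above, had the smallest scatter of the 9 over all arrays. Control arrays read 6.29, 6.23 and 6.24, KL-FL arrays 6.35, 6.29 and 6.29, and KL1 arrays 6.37, 6.30 and 6.29. The lowest klotho arrays met the highest control, so the groups overlapped. The difference was 0.054 (SE 0.035, limma adjusted p = 0.737) for KL-FL, or 1.04-fold with an interval from 0.982-fold to 1.10-fold, and 0.068 (SE 0.035, limma adjusted p = 0.927) for KL1, or 1.05-fold. Over all settings tried it stayed positive, from 0.036 to 0.089 and from 0.043 to 0.087, and its lowest adjusted p in limma was 0.0894, with array weights.

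SESN1 (probe set 8128698; chromosome 6), a sestrin that restrains the growth kinase mTORC1, read 5.75, 5.70 and 5.61 in control, 5.63, 5.77 and 5.70 with KL-FL and 5.57, 5.70 and 5.71 with KL1. The groups overlapped throughout. The difference was 0.013 (SE 0.054, limma adjusted p = 0.962) for KL-FL and -0.027 (SE 0.054, adjusted p = 0.966) for KL1, with intervals from -0.11 to 0.14 and from -0.15 to 0.096. Both signs turned with single arrays, to -0.022 without KL-FL replicate 2 and to 0.020 without KL1 replicate 1, while the KL1 difference was -0.045 without KL1 replicate 2. Its relative SESN2, which is also a target of ATF4, differed by 0.19 (SE 0.067, limma adjusted p = 0.688) for KL-FL and 0.16 (SE 0.067, adjusted p = 0.927) for KL1. Without KL-FL replicate 3 the KL-FL difference of SESN2 was 0.25. SESN3, the sestrin driven by FOXO factors, differed by -0.089 (SE 0.059) and -0.22 (SE 0.059, limma adjusted p = 0.927). Its level was low, at 3.88 to 4.28 over all arrays.

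TP53I3 (probe set 8050702; chromosome 2), a quinone oxidoreductase tied to p53-dependent cell death, read 5.35, 5.55 and 5.42 in control, 5.45, 5.42 and 5.34 with KL-FL and 5.36, 5.53 and 5.48 with KL1. Control replicate 2 was the highest array of all. The difference was -0.036 (SE 0.060, limma adjusted p = 0.891) for KL-FL and 0.016 (SE 0.060, adjusted p = 0.983) for KL1. The former was 0.018 without control replicate 2 and -0.0064 without KL-FL replicate 3. The latter was -0.029 without control replicate 1 and -0.020 without KL1 replicate 2.

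Over the 9 genes the 95% intervals reached at most 1.24-fold in either direction for KL-FL against control, 1.31-fold for KL1 against control and 1.33-fold between KL-FL and KL1, each set by CDKN1A. Between KL-FL and KL1 6 of the 9 genes had positive and 3 negative differences, from -0.052 for TP53I3 to 0.14 for TP53INP1. Precision is limited by having 3 arrays in each group.

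Other p53 targets, from lists chosen by function, likewise held no call. Of 98 listed, 92 were measured, and limma called 0 of them in each comparison. For KL-FL against control 54 lay higher and 38 lower with a median of 0.014, and 12 of the 92 stood at an unadjusted p under 0.05, beside 7.16% of all genes. For KL1 45 lay higher and 47 lower with a median of -0.0044, and 6 of the 92 stood there, beside 5.1% of all genes. The groups did not overlap for 6 of the 92 in the KL-FL comparison (10.4% of all genes) and for 9 in the KL1 comparison (9.47%). Of these, 5 lay above and 1 below the controls for KL-FL, and 5 above and 4 below for KL1.

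Among arrest and growth targets GADD45A, induced by DNA damage, read 7.39 to 7.56 in control, 7.48 to 7.68 with KL-FL and 7.61 to 7.63 with KL1. Its difference was 0.13 (SE 0.060, limma adjusted p = 0.700) and 0.14 (SE 0.060, limma adjusted p = 0.927). Without KL-FL replicate 3 the KL-FL difference of GADD45A was 0.19. Among apoptosis targets AEN, a nuclease that digests DNA in dying cells, read 7.30 to 7.37 in control, 7.37 to 7.52 with KL-FL and 7.46 to 7.51 with KL1, with differences of 0.12 and 0.14 (SE 0.043 each, limma adjusted p = 0.688 and 0.927). Without KL-FL replicate 3 the KL-FL difference of AEN was 0.16. All KL1 arrays of GADD45A and of AEN lay above all controls. For KL1, 9.47% of all genes lay apart from control, above or below. DRAM1, a lysosomal protein that p53 uses to promote autophagy, lay below all controls on all 6 klotho arrays, at 6.19 to 6.30 against 6.31 to 6.50, a position that 3.25% of all genes had for KL-FL and 4.34% for KL1, with differences of -0.14 and -0.13 (SE 0.055 each, limma adjusted p = 0.688 and 0.927). Both klotho groups are set against the same controls, so these positions are not independent. The share of genes below in both was not counted. HHAT, which attaches palmitate to hedgehog proteins, had the smallest p of the 92 in the KL-FL comparison, at 0.19 (SE 0.050, limma adjusted p = 0.583), and differed by 0.026 for KL1, or 0.012 without KL1 replicate 2. In the KL1 comparison the adhesion gene ITGA3 differed by -0.13 (SE 0.039) and EPS8L2 by -0.12 (SE 0.043), both at limma adjusted p = 0.927.

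**Figure D4:**
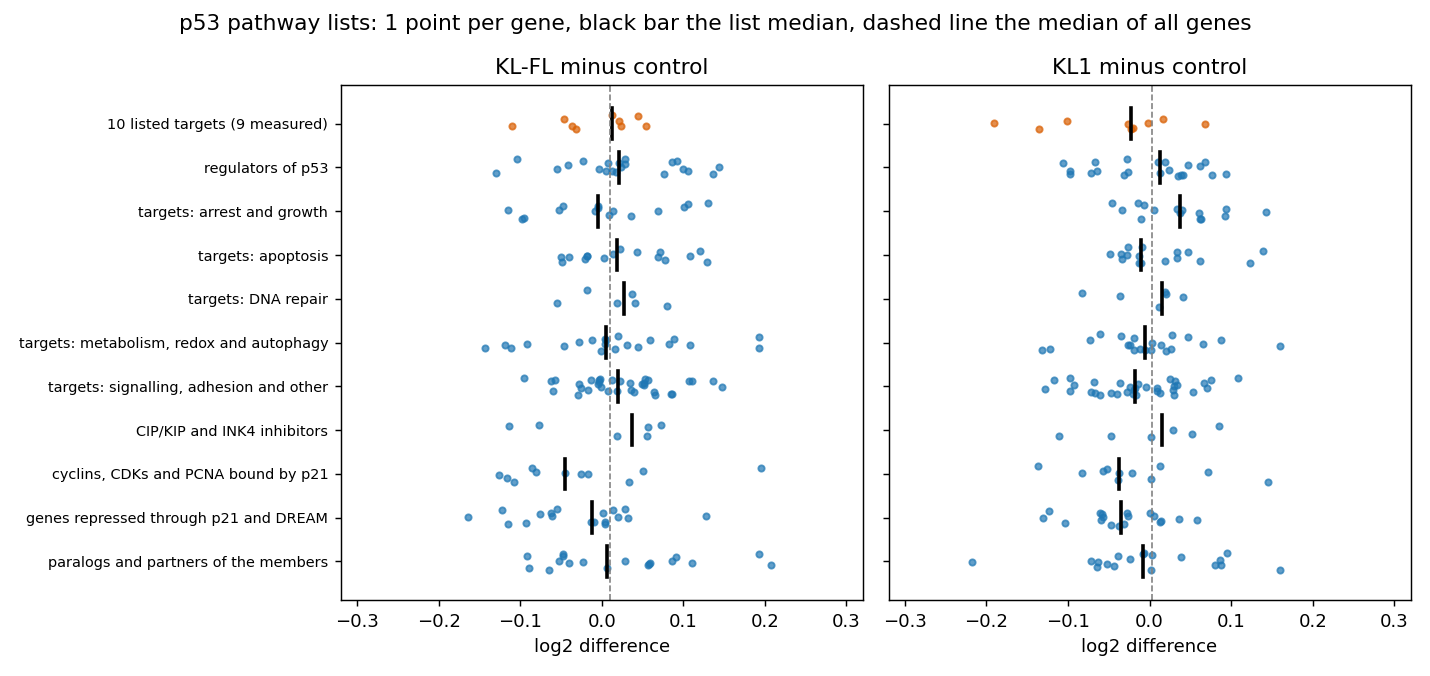
Log2 differences from control (horizontal axis) for each measured gene of the p53 lists, with the list median as a black bar and the median of all genes as a dashed line. TOB2, at -2.43 and -1.44 by its brightest probe set, is off the scale and not drawn, though it counts in its list's median. Another probe set of TOB2 disagreed, at 0.012 and 0.099. Most points lie within 0.2 of 0 in both panels. The list of cyclins, CDKs and PCNA has its median on the negative side in each, at -0.045 and -0.037. So does the list of genes repressed through p21 and DREAM, at -0.012 and -0.035.

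Of p53's regulators 0 of 21 measured genes were called in limma, with medians of 0.021 for KL-FL and 0.013 for KL1. The damage-signalling kinases ATR and CHEK2 differed by 0.14 (SE 0.064) and 0.10 (SE 0.048) for KL-FL, both with limma adjusted p = 0.700, and by 0.024 and 0.047 for KL1. For ATR the KL-FL difference was 0.072 without KL-FL replicate 3, and the KL1 difference was 0.0086 when KL1 replicate 2 was left out. Relatives of p21 did not pass either: CDKN1B, which encodes p27, differed by -0.11 (SE 0.075, limma adjusted p = 0.737) for KL-FL and -0.047 for KL1, and CDKN2A by -0.078 and -0.11. The CDKN1B difference for KL-FL rested on KL-FL replicate 3, at 6.67 against 6.91 and 6.99 on the other KL-FL arrays, and was -0.020 without it. The KL-FL difference of CDKN2A was -0.015 without KL-FL replicate 3, and its KL1 difference was -0.036 when KL1 replicate 2 was left out.

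Of 11 measured genes in the list of cyclins, CDKs and PCNA, whose proteins p21 binds, 0 were called, and 8 of 11 lay lower for KL-FL and 7 of 11 for KL1. CDK1, the mitotic kinase, lay below all controls on all 6 klotho arrays, at 8.04 to 8.14 against 8.17 to 8.27, a position that 3.25% of all genes had for KL-FL and 4.34% for KL1. Its differences were -0.11 and -0.14 (SE 0.040 each, limma adjusted p = 0.688 and 0.927). As for DRAM1, the shared controls make the positions in the klotho groups not independent, and the share of genes below in both was not counted. CCND2, a cyclin of early G1, differed by 0.19 (SE 0.072, limma adjusted p = 0.688) for KL-FL and 0.15 for KL1. Without KL-FL replicate 3 the KL-FL difference was 0.23 for CCND2 and -0.0755 for CDK1. The arrays read only 3.31 to 3.76 for CCND2, as low as the leukocyte marker means, and such a level cannot be told from absence. Of 18 measured genes that p21 represses through the DREAM complex 10 lay lower for KL-FL and 12 for KL1, with medians of -0.012 and -0.035, and 0 were called. AURKB, a mitotic kinase, differed by -0.16 (SE 0.061) for KL-FL and -0.060 for KL1, while the kinetochore gene CENPF differed by 0.13 (SE 0.048) and 0.013. Without KL-FL replicate 3 the KL-FL differences were -0.11 for AURKB and 0.082 for CENPF, and without KL1 replicate 2 the KL1 difference of CENPF was 0.00030. The smallest p of this list in the KL1 comparison was that of CDC25C, at -0.13 (SE 0.0465, limma adjusted p = 0.927), beside 0.032 for KL-FL. These values stand beside CDKN1A differences of 0.024 and -0.10.

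Among 19 paralogs and partners of the listed genes 0 were called in limma. CASP8, the protease that FAS activates, read 7.06 to 7.32 in control and 7.35 to 7.43 with KL-FL, a difference of 0.21 (SE 0.063, limma adjusted p = 0.669), and differed by 0.087 for KL1. The largest difference in any of the lists was that of a probe set annotated to TOB2, an antiproliferative relative of BTG2, and not all probe sets of TOB2 shared it. The brightest probe set naming TOB2 (8113120) read 9.71, 10.05 and 10.35 in control, 7.56, 7.92 and 7.35 with KL-FL and 7.70, 10.13 and 7.98 with KL1. KL1 replicate 2 lay within the control range, and the other 5 klotho arrays lay below it. The difference was -2.43 (SE 0.54, limma adjusted p = 0.550) for KL-FL and -1.44 (SE 0.54, adjusted p = 0.927) for KL1, or -2.20 for KL1 without KL1 replicate 2. When KL1 replicate 2 was left out, the KL-FL difference passed in limma at adjusted p = 0.0304. Probe set 8165707, which also names TOB2, holds the same values on all 9 arrays. The remaining one, 8076331, disagreed, at 6.95 to 7.25 on all arrays with differences of 0.012 and 0.099. KL1 replicate 2 read 7.47 for DDIT3, level with the other KL1 arrays at 7.45 and 7.48. Whether the brighter pair of probe sets reads TOB2 transcript was not tested.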

How the data were processed

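Gene expression was measured on 9 whole-transcript arrays from HCT 116 cells, 3 per group, grouped by title. The authors deposited 1 table of log2 values for 33297 probe sets; Partek 6.6 is named in the submitters' processing notes. How background, normalization and probe set summary were handled is not given in the sources used here. The values run from 1.79 to 12.4, from which a base of 2 was taken. Probe sets were named through the platform annotation: 19181 named 1 gene, 2055 named several, and 12061 had no name here. Gene IDs were looked up in RefSeq, which changed 0 symbols. The brightest probe set stood for a gene, giving 17958 genes.

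The 3 groups were compared in limma 3.58.1 (R 4.3.3) with lmFit, contrasts.fit and eBayes on all arrays and no covariate, with two-sided p-values adjusted by Benjamini-Hochberg over all genes. The script was tested on simulated data. Intervals are 95% intervals from the moderated statistic. The genes and lists were chosen with earlier results of these data known, so no test was made over a list. Genes named were the 9 targets, MDM4, DDIT3, the 5 most correlated with CDKN1A, and part of the genes with the smallest p of the other lists. Others with such a p in a comparison with control, among them TNFRSF10C, PMAIP1 and those of the DNA repair list, are not described. Control and KL1 arrays of the same number deviated from their group means together, with correlations of 0.113, 0.322 and 0.186. Between control and KL-FL arrays the highest such correlation was 0.097. Deviations within a group of 3 arrays are tied to one another, so these correlations are not independent signs of pairing. Nothing states what the numbers share, so the main fit treats the arrays as unpaired. A fit with the replicate number as a block was run as an alternative. With the replicate block limma called 0 genes in each comparison and 0 of the 9 targets. Alternatives were another normalization, centring, filter, variance model, array weights and leaving out arrays; leaving out KL-FL replicate 3 and KL1 replicate 2 together was added after seeing the data.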

Additional observations from a re-analysis of the deposited data

How the results depend on the processing

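Under all 19 settings beside the one reported, 0 of the 9 targets passed in any comparison, and the lowest adjusted p in limma was 0.0894. Of the 27 differences (9 genes, 3 comparisons) 9 kept their sign throughout: FAS, TP53INP1, ZMAT3 and MDM2 for KL-FL, FAS, TP53INP1 and ZMAT3 for KL1, and MDM2 and TP53INP1 between KL-FL and KL1. The causes of the sign changes were not tested. Leaving out 1 array at a time, CDKN1A ranged from -0.065 to 0.14 for KL-FL, from -0.19 to 0.033 for KL1 and from -0.0092 to 0.24 between KL-FL and KL1. GDF15 ranged from -0.069 to 0.017, -0.059 to 0.012 and -0.049 to 0.038, RRM2B from -0.049 to 0.096, -0.025 to 0.030 and -0.047 to 0.097, and SESN1 from -0.022 to 0.046, -0.062 to 0.020 and -0.0071 to 0.072, in the same order. MDM2 ranged from -0.038 to 0.0064 for KL1, TP53I3 from -0.082 to 0.018 for KL-FL and -0.029 to 0.070 for KL1, and between KL-FL and KL1 FAS ranged from -0.032 to 0.011 and ZMAT3 from -0.034 to 0.064. The median of the targets for KL-FL ranged from -0.049 to 0.026.

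With quantile normalization GDF15 was at 0.0087, 0.0070 and 0.0017 in the 3 comparisons and RRM2B at 0.012 for KL1. With array weights SESN1 was at -0.034 for KL-FL and -0.019 between KL-FL and KL1, RRM2B at 0.0090 for KL1, and GDF15 and FAS at 0.018 each between KL-FL and KL1. Without both arrays that stood apart, a setting chosen after seeing the data, KL1 differences were 0.033 for CDKN1A, 0.0064 for MDM2, 0.030 for RRM2B and -0.020 for TP53I3, GDF15 was at 0.017 for KL-FL and 0.033 between KL-FL and KL1, and TP53I3 at 0.013 in the latter.

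Over all genes limma called 1, 1 and 0 in the 3 comparisons. Leaving out 1 array gave 0 to 1 in both comparisons with control. With every probe set, or with the replicate block, limma called 0 for KL-FL and 0 for KL1. With each gene's own variance the counts were 0, 0 and 1, with the arrays compared alone 0 for KL-FL, and without both arrays 2 for KL1. With array weights they were 523, 2 and 1, with a weight of 6.76 on KL-FL replicate 1 against 0.265 on replicate 3. The block changed no other call. No gene of the 9 had a second probe set to put in place of its first. The table has no background reading, so dim genes have no known floor.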
